A study of Mus musculus with 20 samples.

Results

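The sites compared here are the genomic regions that chromatin immunoprecipitation and sequencing (ChIP-seq) listed for Bcl11b in KIKO cells, which are Treg cells devoid of Foxp3, and in cells labelled Tn. The KIKO set joins the regions that the submitters list as KIKO-specific, or as common to both cells, when KIKO cells are set against wild-type (WT) Treg cells. The Tn set is built in the same way from the lists of Tn against WT Treg cells. Regions were matched by identical chromosome, start and end. The KIKO set held 2194 regions and the Tn set 5214, and together they made 5799 of the 22081 regions of the series. Of these, 585 were in the KIKO set only, 1609 were in both sets and 3605 were in the Tn set only. These are called KIKO-only, both and Tn-only regions. Another 8, which the lists of 1 comparison placed in 2 classes, were left out.

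Bcl11b is a zinc-finger protein that T-cell precursors need to commit to the T lineage, and mature T cells keep it. It recruits chromatin complexes such as NuRD, a nucleosome remodeler with histone deacetylases, and can repress or activate the genes it binds. Foxp3, the forkhead factor that marks regulatory T (Treg) cells, works on chromatin with other T-cell factors. The comparison addresses whether Bcl11b without Foxp3 sits where it does in Tn cells, and at which genes the placing differs.

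All cells were sorted from spleen and draining lymph nodes of C57BL/6 mice and fixed. The KIKO cells had the genotype Foxp3-GFPKO, a GFP reporter allele without Foxp3 function, and were sorted as CD4+GFP+; they gave 2 Bcl11b libraries and 1 input. The Tn cells had the genotype Foxp3-IRES-YFP-Cre, in which YFP and Cre follow Foxp3 transcription, and gave 3 Bcl11b libraries and 2 inputs. Their label gives the sort CD4+YFP+, the same as for Treg cells, and does not expand Tn, so the name is used as labelled. WT Treg cells, against which both sets were called, had the same genotype and sort and gave 3 Bcl11b libraries, 2 Foxp3 libraries and 3 inputs. Foxp3 was also precipitated in 2 libraries from Bcl11b-KO Treg cells (Bcl11b f/f Foxp3-IRES-YFP-Cre, CD4+YFP+), which had 2 inputs. The labels give no age, and do not say whether KIKO hosts also had cells with an intact Foxp3 allele or whether replicates came from separate animals. The lists hold positions in mm10 and no score, read count or replicate value. Depth is therefore unknown, shares have Wilson 95% intervals, which take in counting error alone. A p sets listed regions against each other and says nothing of variation between animals. Expression is not measured, so the cell labels could not be checked against marker RNA.

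The promoter windows below show the ground that the classes cover, with the bases of each window that lie inside the region and before the start site. They come from RefSeq (GRCm38.p6, which shares its coordinates with mm10) and run 5′ to 3′ on the strand of the gene. Capitals mark a match to a short motif on either strand: SP/KLF GGGCGG, ETS ACTTCC, RUNX TGTGGT, AP-1 TGANTCA, forkhead TGTTTAC, CRE TGACGTCA or TCF CTTTGAA. A match describes the letters and is no evidence of a bound factor. The first, of Bcl10, a signalling adaptor below the T-cell receptor (TCR), belongs to a region of both sets that is common with WT Treg cells in both comparisons (chr3:145924121-145924261, plus strand). The second, of Usp30, a mitochondrial deubiquitinase, is also in both sets but Tn-specific against Treg cells (chr5:114100130-114100332, plus strand). Ndufb6, a subunit of respiratory complex I, and Tmem170 show KIKO-only regions (chr4:40279422-40279548, minus strand, and chr8:111876728-111876925, minus strand), that of Tmem170 being KIKO-specific. Satb1, a chromatin organizer of T cells, and Prdm1, which encodes the repressor Blimp-1, show Tn-only regions (chr17:51833394-51833540, minus strand, and chr10:44458749-44458810, minus strand).
Bcl10: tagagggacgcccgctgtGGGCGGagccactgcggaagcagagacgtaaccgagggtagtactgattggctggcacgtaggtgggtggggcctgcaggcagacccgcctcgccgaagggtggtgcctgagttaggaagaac
Usp30: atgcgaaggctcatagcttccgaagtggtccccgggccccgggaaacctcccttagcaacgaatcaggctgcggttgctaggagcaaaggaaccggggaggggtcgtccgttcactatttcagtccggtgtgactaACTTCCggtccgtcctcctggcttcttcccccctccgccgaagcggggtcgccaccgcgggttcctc
Ndufb6: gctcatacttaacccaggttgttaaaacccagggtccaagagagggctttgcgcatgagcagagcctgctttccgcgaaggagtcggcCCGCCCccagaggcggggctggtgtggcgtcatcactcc
Tmem170: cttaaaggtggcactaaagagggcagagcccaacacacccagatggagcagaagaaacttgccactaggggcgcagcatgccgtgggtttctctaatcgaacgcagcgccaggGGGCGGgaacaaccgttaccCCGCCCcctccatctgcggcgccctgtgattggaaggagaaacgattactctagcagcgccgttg
Satb1: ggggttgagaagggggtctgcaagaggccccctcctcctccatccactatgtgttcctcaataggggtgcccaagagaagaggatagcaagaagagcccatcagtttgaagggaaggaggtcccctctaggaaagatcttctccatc
Prdm1: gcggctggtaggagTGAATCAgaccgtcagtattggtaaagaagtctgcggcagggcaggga
The stretches from Bcl10, Ndufb6 and Tmem170 hold the SP/KLF letters, that from Usp30 holds the ETS letters, that from Prdm1 holds the AP-1 letters, and that from Satb1 holds none of the 7 motifs.

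Most of the KIKO set lay within the Tn set, and most of the Tn set lay outside the KIKO set. The 1609 regions of both sets were 73.3% (71.4 to 75.1) of the KIKO set and 30.9% (29.6 to 32.1) of the Tn set. Because both sets were called against the same WT Treg Bcl11b libraries, this overlap is a count and carries no test. Among regions wider than 276 bp the shares were 90.4% of the KIKO set and 41.8% of the Tn set. Nearly all shared regions were also WT Treg regions: 1571 of the 1609 were listed as common with WT Treg cells in both comparisons. Most WT Treg regions likewise lay in the Tn set, with 4489 common to Tn and 2025 Treg-specific against Tn. Against KIKO cells 2127 were common and 3515 WT Treg-specific, so most WT Treg regions lay outside the KIKO set too. Lying mostly within the Tn set was thus not particular to cells without Foxp3.

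The regions by which Tn cells differed from WT Treg cells were mostly outside the KIKO set, which the lists largely fix. Of the 2194 KIKO set regions, 2127 were common with WT Treg cells, while Tn-specific regions are those that WT Treg cells lacked. The shares that follow therefore do not show how far KIKO cells hold the Tn pattern. Of the 725 Tn-specific regions, which made 10% of the 7243 regions in the Tn comparison, 37 (5.10%, 3.72 to 6.96) were in the KIKO set, beside 1572 of the 4489 regions common to Tn and WT Treg cells (35.0%, 33.6 to 36.4). KIKO-specific regions were few, 67 or 1.17% of the 5713 regions in the KIKO comparison. The Tn comparison did not list 63 of the 67 at all, 1 was common there and 3 were Tn-specific. The 3 that were specific on both sides lay in Apbb2, an adaptor of the amyloid precursor protein (chr5:66326446-66326733), in Mre11a, a nuclease of DNA-break repair (chr9:14784711-14785113), and in Sharpin, a subunit of the linear ubiquitin ligase (chr15:76350498-76350749).

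**Figure D1:**
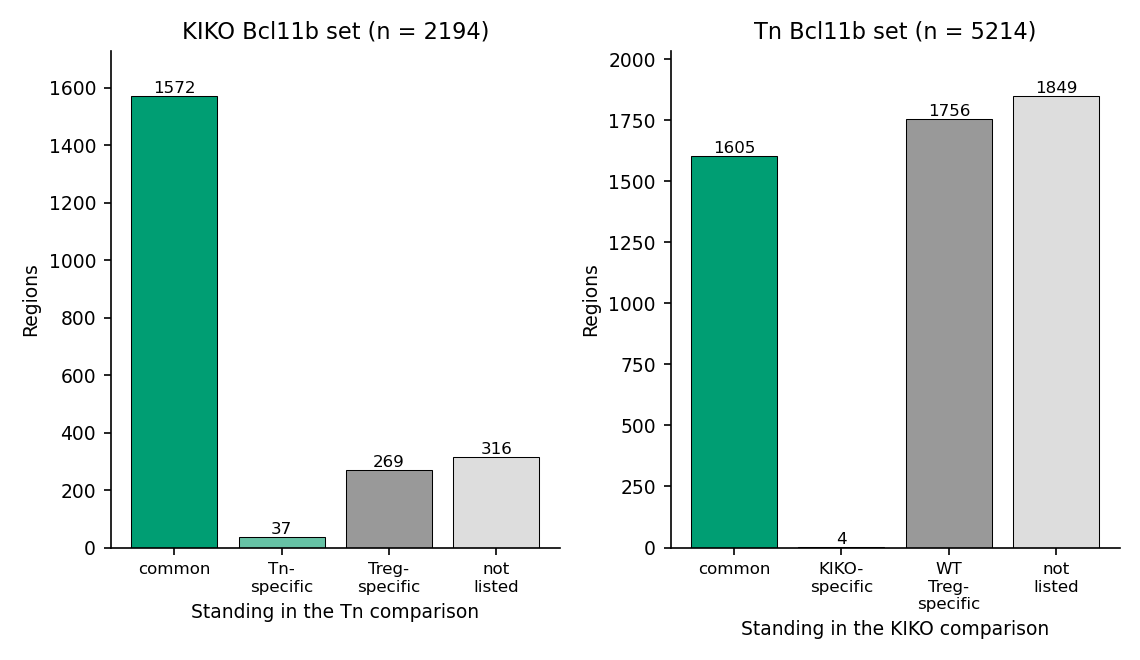
Number of regions of the KIKO Bcl11b set by their listing in the Tn comparison (left) and of the Tn Bcl11b set by their listing in the KIKO comparison (right); the y axes are counts of regions with separate scales. On the left 1572 regions are common and 37 Tn-specific, and on the right 1605 are common, 1756 are WT Treg-specific and 1849 are not listed.

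The 34 regions that were Tn-specific in one comparison and common with KIKO in the other included one inside Bcl11b itself (chr12:107993095-107993393), one downstream of Dll4, a Notch ligand gene (chr2:119337789-119338262), and one beside the start of Cep135, a centriole protein gene (chr5:76588480-76588762). Here the lists conflict, because common with KIKO means that WT Treg cells were counted as holding the region. The disagreement is wider than these 34, since a region that WT Treg cells hold should stand in both comparisons. By identical coordinates, 253 regions common with KIKO were not listed in the Tn comparison. Another 1163 regions common with Tn were not listed in the KIKO comparison. Of the 34, 18 (52.9%, 36.7 to 68.5) also stood on the Treg Bcl11b side of the comparison with Foxp3.

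KIKO-only regions fell into 3 groups. In the first, 269 (46.0%) were Treg-specific against Tn cells and common with KIKO, so that by the lists KIKO and WT Treg cells shared them and Tn cells did not. The second held 253 regions that were common with KIKO and not listed in the Tn comparison, and the third held 63 that were KIKO-specific. The Treg Bcl11b side of the Foxp3 comparison held 266 of the 269 regions (98.9%), 38 of the 253 (15.0%) and 0 of the 63. The 3 groups also differed in width. Of the 269, 227 (84.4%) were exactly 198 bp, the most frequent width of regions WT Treg-specific against KIKO, and 0 were 252 bp. Exactly 252 bp, the most frequent width of KIKO-specific regions, were 170 of the 253 and 62 of the 63. That KIKO and WT Treg cells shared the 269 thus rests mostly on regions of the WT Treg width. The rule by which the submitters called a region common is not given in the sources used here.

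Tn-only regions, of which 2917 (80.9%) were common with WT Treg cells in the Tn comparison, split likewise. Of the 3605, 1756 (48.7%, 47.1 to 50.3) were listed as WT Treg-specific against KIKO cells, so by the lists KIKO cells lacked them. Tn and WT Treg cells shared nearly all: 1754 were common in the Tn comparison. The other 1849 (51.3%) were not listed in the KIKO comparison. Of these, 230 (12.4%) stood on the Treg Bcl11b side of the Foxp3 comparison, against 1701 of the 1756 (96.9%).

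KIKO-only and Tn-only regions by definition match no region of the other set, and their distance to its nearest region was counted. Such shares were not computed for other regions of the series, so they are not called low or high. Of KIKO-only regions, 7.18% (5.36 to 9.56) had a Tn set region within 5 kb and 41.0% within 50 kb, with a median distance of 80.1 kb. Of Tn-only regions, 4.24% (3.63 to 4.95) had a KIKO set region within 5 kb and 25.2% within 50 kb, with a median of 177 kb. The Tn set is the larger one, and the part of its size in this difference was not tested.

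Position and Foxp3 listing were not used by the rule that set the classes, and all 3 classes differed in both. Foxp3 listing and nearness to a gene end moved with region width, in which the classes also differed, as given below. The tests over all widths therefore do not separate class from width. Each of 4 features was compared between each pair of classes by a two-sided Fisher's exact test, with Benjamini-Hochberg adjustment over the 12 tests. A protein-coding gene ended or began within 1 kb of the centre in 22.7% of KIKO-only, 58.8% of both and 42.9% of Tn-only regions, beside 37.9% of all regions of the series. The odds ratio was 0.206 (exact 95% interval 0.165 to 0.257, adjusted p = 6.5e-52) for KIKO-only against both. It was 0.527 (exact interval 0.467 to 0.595, adjusted p = 5.4e-26) for Tn-only against both and 0.392 (0.317 to 0.482, adjusted p = 3.0e-21) for KIKO-only against Tn-only. Among KIKO-only regions, gene ends took 11.9% of the 269 Treg-specific ones, 38.3% of the 253 and 6.35% of the 63 KIKO-specific ones.

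The centre lay inside a protein-coding gene in 49.7% of KIKO-only, 58.6% of both and 64.1% of Tn-only regions, beside 60.4% of all regions of the series. The odds ratio was 0.699 (exact interval 0.575 to 0.849, adjusted p = 2.6e-04) for KIKO-only against both. For Tn-only against both it was 1.26 (exact interval 1.12 to 1.43, adjusted p = 1.7e-04), and for KIKO-only against Tn-only 0.554 (0.463 to 0.663, adjusted p = 6.7e-11).

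Foxp3 in WT Treg cells was listed at 20.3% of KIKO-only, 68.0% of both and 45.4% of Tn-only regions, and at 69.7% of all regions of the series. Those 22081 regions include the Foxp3 lists themselves, and 15382 of them are the WT Foxp3 set. The share over all regions, here and for Bcl11b-KO Foxp3 below, is thus set by the lists and is no neutral background. The odds ratio was 0.120 (exact interval 0.0950 to 0.152, adjusted p = 2.4e-89) for KIKO-only against both, 0.391 (0.345 to 0.443, adjusted p = 7.5e-52) for Tn-only against both, and 0.307 (0.247 to 0.381, adjusted p = 1.0e-31) for KIKO-only against Tn-only. Foxp3 in Bcl11b-KO Treg cells was listed at 17.8% of KIKO-only, 53.2% of both and 36.0% of Tn-only regions, and at 58.3% of all regions of the series. The odds ratios there were 0.190 (exact interval 0.149 to 0.241, adjusted p = 4.6e-52), 0.494 (0.438 to 0.558, adjusted p = 7.1e-31) and 0.385 (0.305 to 0.482, adjusted p = 2.5e-19) for the same pairs. Of Tn-only regions, WT Foxp3 was listed at 55.1% of those WT Treg-specific against KIKO and at 36.2% of those not listed there. Of KIKO-only regions it was listed at 12.3% of the 269 Treg-specific against Tn, 33.6% of the 253 and 1.59% of the 63. Over regions listed in both comparisons the odds ratio for WT Foxp3 was 0.0659 for KIKO-only against both and 0.114 for KIKO-only against Tn-only, and that for gene ends was 0.0947 and 0.161.

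Region width moved with these shares. The most frequent width was 252 bp among KIKO-specific regions, 226 bp among Tn-specific regions and 198 bp among regions WT Treg-specific against KIKO, and each class held many regions of exactly such a width. In the KIKO set as a whole 12.1% of regions were 252 bp and 24.5% were 198 bp wide. Of KIKO-only regions 39.7% were 252 bp and 38.8% were 198 bp wide. Of Tn-only regions 31.0% were 226 bp and 17.9% were 198 bp wide, and 19.3% of both regions were 198 bp wide. Regions wider than 276 bp, the largest such width of any specific list, made up 19.1% of KIKO-only, 65.8% of both and 40.9% of Tn-only regions.

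**Figure D2:**
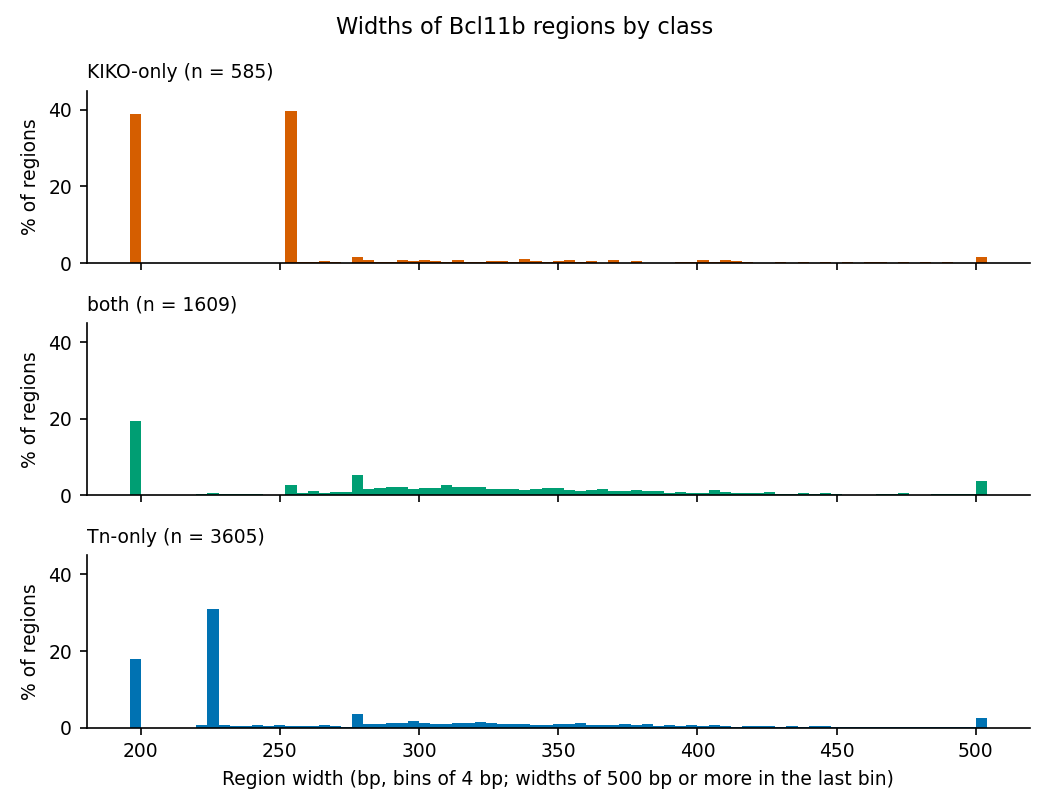
Percentage of the regions of each class (y axis) by width in bins of 4 bp (x axis, bp), with widths of 500 bp or more in the last bin; the panels show KIKO-only, both and Tn-only regions. KIKO-only regions pile up at 198 and 252 bp and Tn-only regions at 198 and 226 bp, while 65.8% of both regions are wider than 276 bp.

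Width and Foxp3 listing were tied in these lists. None of the 227 KIKO-only, 311 both and 645 Tn-only regions of 198 bp was listed for WT Foxp3. Among regions of exactly 1 of the 3 Bcl11b widths, WT Foxp3 was listed at 1.31% of 459 KIKO-only, 3.95% of 354 both and 0.566% of 1766 Tn-only regions. Among regions wider than 276 bp it was listed at 89.3% (82.2 to 93.8) of 112 KIKO-only, 89.8% (87.8 to 91.5) of 1058 both and 91.0% (89.4 to 92.3) of 1476 Tn-only regions. Wide regions are therefore not chosen independently of Foxp3 listing, and shares this high leave little room for a difference, so tests within them do not show that the classes are alike. In these wide regions none of the 3 differences in WT Foxp3 passed the exact test: the odds ratio was 0.947 (adjusted p = 0.87) for KIKO-only against both, 1.15 (adjusted p = 0.50) for Tn-only against both and 0.825 (adjusted p = 0.60) for KIKO-only against Tn-only. For Bcl11b-KO Foxp3 the odds ratios in wide regions turned to 1.70, 1.22 and 1.39 for the same pairs in that order, and none passed the exact test (adjusted p = 0.068, 0.066 and 0.35). Gene ends took 57.1% of wide KIKO-only, 70.7% of wide both and 59.6% of wide Tn-only regions, and there the difference of KIKO-only from Tn-only did not pass the exact test (odds ratio 0.903, adjusted p = 0.67). Gene ends did differ there between KIKO-only and both regions, with an odds ratio of 0.553 (Fisher's exact test, adjusted p = 0.019). They also differed between Tn-only and both regions, with an odds ratio of 0.612 (Fisher's exact test, adjusted p = 1.0e-07). Inside a gene, neither difference of wide KIKO-only regions passed the exact test, with an odds ratio of 0.841 (adjusted p = 0.56) against both and 0.624 (adjusted p = 0.056) against Tn-only regions. That of wide Tn-only from wide both regions did pass, with an odds ratio of 1.35 (Fisher's exact test, adjusted p = 0.0021). At the single width of 198 bp, gene ends took 8.37% of KIKO-only, 23.2% of both and 25.6% of Tn-only regions, a description with no test.

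**Figure D3:**
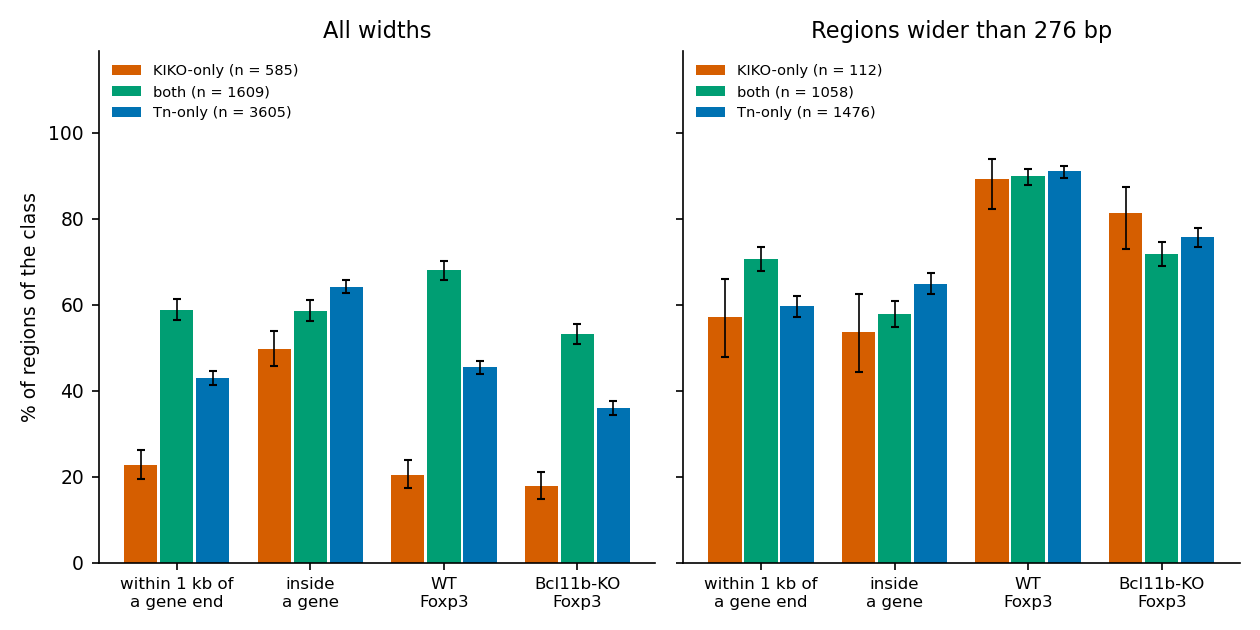
Percentage of KIKO-only, both and Tn-only regions (y axis) within 1 kb of a gene end, inside a gene, and listed for Foxp3 in WT or Bcl11b-KO Treg cells, for all widths (left) and for regions wider than 276 bp (right); bars are shares and error bars Wilson 95% intervals. WT Foxp3 covers 20.3%, 68.0% and 45.4% of the classes on the left and 89.3%, 89.8% and 91.0% on the right.

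Promoter windows, from 250 bp before to 50 bp after a RefSeq start, were overlapped by 14.4% of KIKO-only, 46.1% of both and 29.8% of Tn-only regions. The share over all regions of the series was not computed. A wider region overlaps a window more easily, and the part of width in this difference was not tested. CpG-rich windows, with many CG dinucleotides and a high GC content, were frequent in all 3 classes. Of 107 windows at KIKO-only, 956 at both and 1371 at Tn-only regions, 85.0%, 85.6% and 83.0% were CpG-rich, beside 33.5% of all 32851 windows. The SP/KLF letters stood in 66.4%, 61.9% and 69.0% of them and in 35.7% of all windows. The ETS letters stood in 31.8% (23.7 to 41.1), 42.8% (39.7 to 45.9) and 38.1% (35.5 to 40.7), and in 23.8% of all windows. RUNX letters were in 11.2%, 14.0% and 11.3%, and in 16.8% of all windows. AP-1 letters, seen above in Prdm1, were in 3.74%, 4.18% and 4.23%, and in 7.81% of all windows. These shares are descriptions, with no test.

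Regions were assigned to the nearest protein-coding gene body within 100 kb. By that rule 2045 of 21887 genes (9.34%) had a KIKO set region and 4375 (20%) had a Tn set region. KIKO-only regions lay at 553 genes, both regions at 1535 and Tn-only regions at 3115. Classes also met at the same genes: 275 genes had both and Tn-only regions, and 85 had KIKO-only and Tn-only regions with none in both. How many such genes the class sizes alone would give was not computed, so these counts are not called low or high.

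No gene held more than 2 KIKO-only regions, and 9 genes held 2, with no region of the Tn set. The first 6 of them by symbol, with predicted genes passed over, were Calcr, the calcitonin receptor gene, Cdk6, a kinase gene of the G1 phase, Gadd45g, a stress-response gene, Immp1l, of a mitochondrial peptidase, Ncapg2, of condensin II, and Ndufb6. At Gadd45g the regions lay 1.69 and 0.897 kb before the start (chr13:51844856-51845107 and chr13:51845680-51845877), and the nearer one was Treg-specific against Tn. At Cdk6 the region chr5:3355858-3356137 was Treg-specific against Tn and in the Foxp3 sets of WT and of Bcl11b-KO cells. Il10, the gene of an anti-inflammatory cytokine made by Treg cells, had 1 KIKO-only region 1.02 kb outside the gene (chr1:131025849-131026132), likewise Treg-specific against Tn and listed for Foxp3 in Bcl11b-KO cells. Maf, a transcription factor gene known as an activator of Il10, also had 1, at 0.616 kb from the gene (chr8:115707412-115707609) and Treg-specific against Tn.

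No gene held more than 2 both regions, and 67 genes held 2; those described here are the first by symbol of the ones with no region of another class, predicted genes again passed over. Bcl2l1, which encodes the survival protein Bcl-xL, had 2 both regions, 1 at its start (chr2:152830594-152830813) and 1 at 61.8 kb into the gene (chr2:152766641-152766838). Cdc42, a small GTPase gene, had 2 at 10.6 and 16.1 kb outside the gene, and Cnot2, a subunit of the CCR4-NOT deadenylase, had 1 inside the gene and 1 at 0.266 kb outside it. Ap5b1, Atn1 and Ccdc71l also had 2 both regions each and none of the other classes.

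Tn-only regions were most numerous at Zmiz1, Egr1, St6gal1, Tcf7, Amz2 and Nsd3. Tcf7, which encodes the T-lineage factor TCF-1, had 4 Tn-only regions and none in the KIKO set. Those at chr11:52265649-52266019, chr11:52268338-52268762 and chr11:52299729-52300064 were WT Treg-specific against KIKO, and that at chr11:52293128-52293353 was Tn-specific. Satb1 had 3, all 198 bp wide and all WT Treg-specific against KIKO, at 0.202, 46.4 and 54.6 kb before its start. Zmiz1, a coactivator of Notch1 in T cells of mice, had 1 KIKO-only region at chr14:25609493-25609690 and 5 Tn-only regions. Nsd3, a histone methyltransferase gene, had 1 KIKO-only and 4 Tn-only regions. Egr1, an immediate early gene induced by TCR signalling, and St6gal1, a sialyltransferase gene, had 4 Tn-only regions each, and Amz2, a metallopeptidase gene, had 1 in both sets and 4 Tn-only.

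All 12 gene lists had fewer genes in the KIKO set, which is the smaller set, than in the Tn set, and so had the genome as a whole. Of 25 naive and T lineage genes, 8 had a KIKO set region and 18 a Tn set region. Tcf7, Satb1, Lef1, Foxp1, Klf2 and the lymph-node homing gene Ccr7 were in the Tn set and not in the KIKO set. Bcl11b, S1pr1, Runx1, Runx3 and Ikzf1 were among those in the KIKO set. Of the 34 Tn set regions at the list's genes, 20.6% were in both sets, beside 31.0% over all genes. A low share was not particular to this list. It was 15.4% at Treg signature and 16.7% at T helper effector genes. Not all lists were low, as it was 40.0% at housekeeping genes, above that over all genes. All of these come from few regions.

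Of 32 TCR signalling genes, 9 (28.1%) were in the KIKO set and 24 (75.0%) in the Tn set, beside 9.34% and 20% of all genes. Zap70, the kinase recruited to the receptor, and Bcl10 and Nr4a1 were in both. Lck, Lat, Cd5 and Egr1, which encode a proximal kinase, an adaptor, an inhibitory coreceptor and a transcription factor, were in the Tn set and not in the KIKO set. Cd3e, a receptor chain gene, had its only such region in the KIKO-only class.

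Of 25 Treg signature genes, 5 were in the KIKO set and 9 in the Tn set. Foxp3, Ctla4, Ikzf2 and Ikzf4 had no region of either set. Il2ra, the IL-2 receptor alpha chain gene, had 1 Tn-only region inside the gene (chr2:11653334-11653671), WT Treg-specific against KIKO. Tigit, an inhibitory receptor gene, had 3 Tn-only regions and Prdm1 had 2. All 3 at Tigit and 1 of the 2 at Prdm1 were common with WT Treg cells in the Tn comparison. Il2rb, the IL-2 receptor beta chain gene, and Tnfrsf9, which encodes 4-1BB, had 1 KIKO-only region each and no Tn set region. Gata3, Ifng and Il17a, which mark T helper subsets, had no region of either set. Of 21 T helper effector genes 2 (9.52%) were in the KIKO set and 5 (23.8%) in the Tn set, near the shares of all genes.

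**Figure D4:**
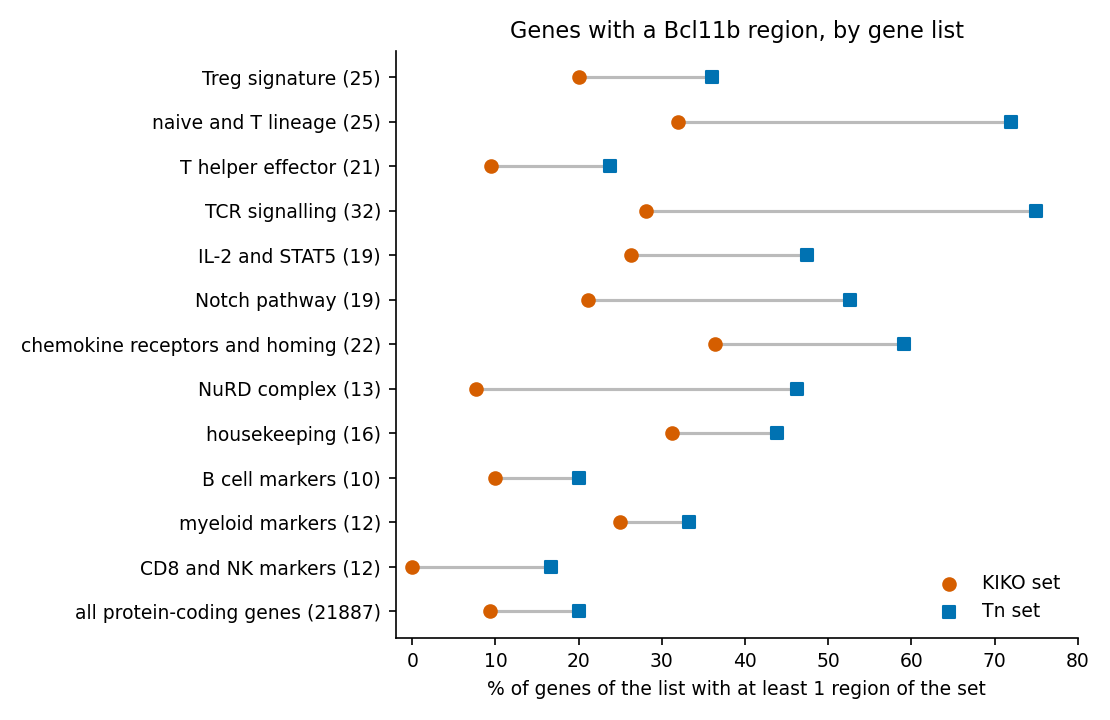
Percentage of the genes of each list (x axis) with at least 1 region of the KIKO set (circles) or the Tn set (squares); numbers of genes are in parentheses and the bottom row is all protein-coding genes. The TCR signalling row has 28.1% and 75.0%, beside 9.34% and 20% of all genes.

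The shares of the remaining lists stand beside 9.34% of all genes in the KIKO set and 20% in the Tn set. Of 19 IL-2 and STAT5 genes, 5 (26.3%) were in the KIKO set and 9 (47.4%) in the Tn set. Of 19 Notch pathway genes these were 4 (21.1%) and 10 (52.6%), and of 22 chemokine receptor and homing genes 8 (36.4%) and 13 (59.1%). For the 13 NuRD subunit genes the counts were 1 (7.69%) and 6 (46.2%). Among housekeeping genes 5 (31.2%) and 7 (43.8%) of 16 were covered. Of the markers of other cells, 1 and 2 of 10 B cell genes, 3 and 4 of 12 myeloid genes and 0 and 2 of 12 CD8 and NK genes had a region. Ms4a1, Cd79a, Pax5, Itgam, Csf1r, Lyz2, Cd8a, Nkg7 and Eomes had none of either set. The covered ones were Spi1, a myeloid transcription factor gene, Fcgr1, S100a9 and Fcer2a in both sets, and Cebpb, Ebf1, Cd8b1 and Klrk1 in the Tn set alone. The region at Cd8b1, the gene of the CD8 beta chain, was Tn-specific, 0.172 kb from the gene and 226 bp wide. Binding lists say nothing of the number of such cells.

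Several genes had regions of more than 1 class. At Lfng, whose glycosyltransferase modifies Notch receptors, a both region and a KIKO-only region lay side by side 10.7 and 10.4 kb before the start (chr5:140596485-140596759 and chr5:140596826-140597117). A both and a Tn-only region lay downstream, at 10.6 and 9.50 kb from the start, and all 4 were listed in both Foxp3 sets, WT and Bcl11b-KO. At Socs3, a feedback inhibitor of cytokine signalling, the KIKO-only region lay inside the gene (chr11:117969054-117969312) and the Tn-only region 0.357 kb outside it (chr11:117965563-117965881). At Cxcr5, a receptor of follicle homing, the KIKO-only region lay 0.124 kb from the gene (chr9:44526389-44526747) and was Treg-specific against Tn, beside 2 Tn-only regions and 1 in both sets.

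At Bcl10 the start-site region shown above was in both sets, and a KIKO-only region lay 5.62 kb before the start (chr3:145918547-145918744). At Nr4a1, a nuclear receptor gene induced by the TCR, 2 both regions were listed with 1 Tn-only region. At Stat5b, a transducer of IL-2 signals, 1 both region lay between 2 Tn-only ones. At Ccr9, a gut-homing receptor gene, a both and a Tn-only region lay 10.3 and 12.6 kb before the start. Bcl11b itself held the both region named above and a Tn-only region at chr12:107998719-107999043, both of which stood in the 2 Foxp3 sets.

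**Figure D5:**
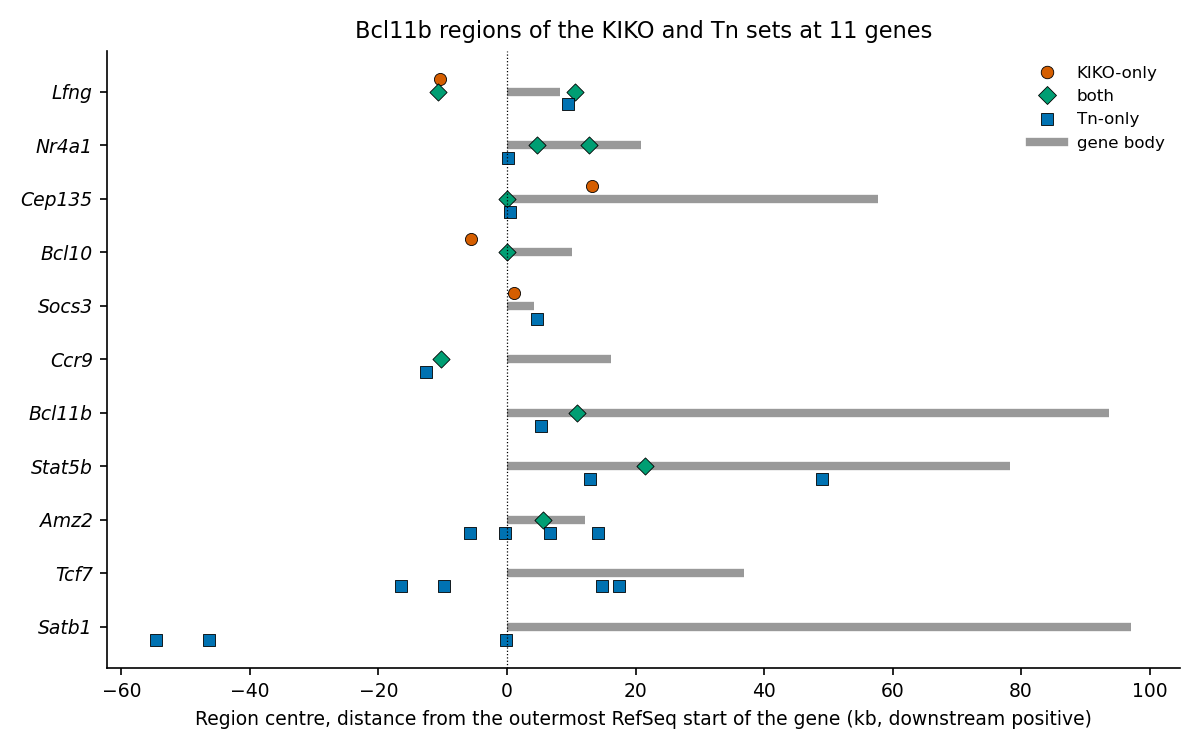
Position of KIKO-only (circles), both (diamonds) and Tn-only (squares) regions at 11 genes chosen after their values were seen, as distance of the region centre from the outermost RefSeq start of the gene (x axis, kb, downstream positive); grey bars are gene bodies and points are offset vertically by class. Lfng has all 3 classes within 10.7 kb of its start, and Tcf7 and Satb1 have Tn-only regions only.

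MicroRNA hairpins were overlapped by 1 KIKO-only, 3 both and 5 Tn-only regions, of 1005 hairpins placed. The share over all regions of the series was not computed, so these counts show no difference between classes. The hairpins named next are examples. The Tn-only region chr1:23272216-23272441 spans miR-30a-5p and is not listed in the KIKO comparison. The Tn-only region chr10:122985396-122985671 reaches the hairpin of let-7i, ends short of the mature let-7i-5p, and is WT Treg-specific against KIKO. Their mature sequences follow, with bases 2 to 8, the seed that pairs with targets, in capitals (RefSeq, GRCm38.p6). The seeds differ.
miR-30a-5p: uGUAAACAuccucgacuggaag
let-7i-5p: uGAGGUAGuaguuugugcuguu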

How the data were processed

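The authors deposited 12 lists of regions with chromosome, start and end and no score; 4 lists build the sets used here. Library preparation, per the labels' protocols, used a NEXTFLEX kit on sheared chromatin. Per the submitters' processing notes, mm10 was the build and HISAT2 2.1.0, HOMER 4.10.1, deepTools, SAMtools 1.3, Trim Galore 0.4.2, FastQC and cutadapt were used. The tools' roles, the peak threshold, any pooling of replicates and the rule for common regions are not given in the sources used. The label of 1 WT Treg Bcl11b library names none of the lists.

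Repeated rows (127) were dropped. Positions are printed from 1. Genes were taken from RefSeq (GRCm38.p6) with gene ends and no strand, and starts from RefSeq promoter windows, of which none on chromosome 18 was used. Members, gene lists and named genes were chosen with earlier results of these data known. Named are 11 fixed genes, those with the most regions per class, per list, or with both KIKO-only and Tn-only regions, and those of regions specific against Treg and in both sets; others named were chosen after their values were seen. Some genes of the lists and of the rule are not reported here. CpG-rich windows have an observed over expected CpG of at least 0.6 and at least 50% GC. Steps were tested on simulated data. No genome was used here, so sequence was described in promoter windows only. Tests used scipy 1.17.1 under Python 3.11.15, and figures matplotlib 3.10.9.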

Additional observations from a re-analysis of the deposited data

How the results depend on the processing

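Of 110 alternatives tried on the values above, 95 left them within their interval or within 1.5 times, or kept direction and side of the threshold (0.05). These covered the 8 left-out regions put back, autosomes, edges within 500 bp, gene ends within 2.5 kb, genes of any type, genes within 20 kb, the WT Foxp3 set of the other comparison, and regions over 1 kb from a gene end. Omitting regions of 198 bp, omitting chromosome 18, and RefSeq starts in place of gene ends were chosen after seeing the data. The exceptions concern width and listing. Among regions wider than 276 bp, 90.4% of the KIKO set was in the Tn set and 41.8% of the Tn set in the KIKO set. There the odds ratios for WT Foxp3 were 0.947, 1.15 and 0.825 for KIKO-only against both, Tn-only against both and KIKO-only against Tn-only, and for Bcl11b-KO Foxp3 1.70, 1.22 and 1.39. For gene ends KIKO-only against Tn-only gave 0.903, and for centres inside a gene KIKO-only gave 0.841 against both and 0.624 against Tn-only. Over regions listed in both comparisons, 85.7% of the KIKO set and 47.8% of the Tn set were shared, and KIKO-only against both inside a gene gave 0.838 (Fisher's exact test, adjusted p = 0.18). Without regions of 198 bp, 78.4% of the KIKO set was shared. Some other odds ratios changed in size but kept direction and side of the threshold, and so count among the 95. Over regions listed in both comparisons, KIKO-only regions gave 0.0947 (both) and 0.161 (Tn-only) for gene ends. They gave 0.0659 and 0.114 for WT Foxp3, and 0.212 (Tn-only) for Bcl11b-KO Foxp3. Without regions of 198 bp, WT Foxp3 in Tn-only against both gave 0.230. With the other WT Foxp3 set, KIKO-only against both gave 0.0775. The cause was not tested. No paired analysis was possible because the lists are per group and carry no replicate, and for that reason no replicate could be left out. The planned test of sequence in windows around region centres was not run. The depth behind each call is unknown, so a region absent from a list is not shown to be unbound.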

Other observations

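KIKO-specific regions often lay at chemosensory receptor genes (symbols that begin with Olfr, Vmn, Taar or Tas, a group chosen after the values were seen). These genes were nearest to 14 of the 67 KIKO-specific regions (20.9%, 12.9 to 32.1) and to 21 of the 725 Tn-specific regions (2.90%, 1.90 to 4.39). They were nearest to 60 KIKO-only regions (10.3%, 8.05 to 13.0), 18 both regions (1.12%) and 74 Tn-only regions (2.05%), beside 1.25% of all regions of the series and 6.93% of all protein-coding genes. Of the 67 KIKO-specific regions, 63 were exactly 252 bp wide. What part of this goes with width was not tested.

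Few KIKO set regions lay on chromosome X. It held 9 of 2194 KIKO set regions (0.410%, 0.216 to 0.778) and 76 of 5214 Tn set regions (1.46%, 1.17 to 1.82), beside 1.83% of all regions of the series. Among KIKO-specific regions 0 of 67 were on X, with a 95% interval that reaches 5.42%, against 27 of 725 Tn-specific ones (3.72%). Of the 3515 regions WT Treg-specific against KIKO, 29 (0.825%, 0.575 to 1.18) were on X, and of the 2025 Treg-specific against Tn, 8 (0.395%, 0.200 to 0.778).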
